A study of Homo sapiens with 8 samples.

Results

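The genes described are the human mitochondrial ferredoxins FDX1 and FDX2 and the reductase that feeds them, FDXR. They are the rows of the expression tables that carry these symbols, 3 of 60592 rows, and all 3 were among the 12063 genes with at least 1 FPKM (fragments scaled to gene length and library size) in at least 2 libraries. RNA was sequenced from the established cell line WSU-DLCL2, which comes from a human diffuse large B-cell lymphoma, in 4 groups of 2 libraries. They were FDX1-overexpressing (FDX1-OE) cells in 15 nM elesclomol (ES), a copper-carrying compound, control cells in ES, FDX1-OE cells in DMSO, the solvent, and control cells in DMSO. All cultures were treated for 48 h, and the control cells are labelled wild type. The vector and promoter used for FDX1, whether the FDX1-OE cells are a clone or a pool, and whether the control cells carry an empty vector are not given in the sources used here. Whether replicate libraries stem from separate cultures is not stated either, so the p-values reflect the spread between libraries that may differ only technically.

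Ferredoxins are small proteins of the mitochondrial matrix that carry single electrons on an iron-sulfur cluster. FDXR, a flavoprotein, takes electrons from NADPH and loads them onto a ferredoxin, which hands them to an acceptor enzyme. FDX1, also called adrenodoxin, is known for reducing mitochondrial cytochromes P450 in steroid and vitamin D metabolism and for its part in making lipoate, the cofactor of the pyruvate and 2-oxoglutarate dehydrogenases. FDX2 gives electrons to the machinery that builds new iron-sulfur clusters on the scaffold ISCU. FDX1 is also known to bind elesclomol and to reduce the copper it carries, and FDXR is a known target of the transcription factor p53.

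The stretch that holds the iron-sulfur cluster is shown first, because it is what makes these genes ferredoxins and shows how far their transcripts can be told apart. The sequences are the coding strand of GENCODE 29 transcripts on GRCh38, and capitals mark the codons of 3 cysteines spaced as in ferredoxins, found by their reading frame. In FDX1 (chr11:110429883-110464881, plus strand) they are codons 106, 112 and 115 of 184, in an exonic window that is spliced from chr11:110435952-110456964. In FDX2 (chr19:10310045-10316015, minus strand) they are codons 108, 114 and 117 of 186, in a window spliced from chr19:10310894-10315392.
FDX1: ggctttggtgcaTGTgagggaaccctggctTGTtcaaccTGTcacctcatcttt
FDX2: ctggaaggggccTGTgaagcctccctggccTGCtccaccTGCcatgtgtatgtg
These windows share 30 of 54 bases (55.6%), and the longest run of identical bases between the coding sequences of FDX1 and FDX2 is 11. FDXR (chr17:74862497-74873031, minus strand) is no ferredoxin and codes for a protein of 491 codons. The coordinates belong to this reference, while the submitters' processing notes name hg19.

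The FDX1 coding sequence has a near copy elsewhere in the genome, the processed pseudogene FDX1P1 (chr20:34475924-34476474, minus strand). It matches FDX1 at 527 of 552 coding bases (95.5%). Its copy of the cluster window, at chr20:34476118-34476171, is shown with the 3 bases that differ from FDX1 in capitals.
FDX1P1: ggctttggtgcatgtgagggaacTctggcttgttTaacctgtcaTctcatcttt
Within the FDX1 coding sequence, taken without its stop codon, the longest identical stretch is the last 106 bases. It lies at chr11:110462360-110462465 in FDX1 and chr20:34475927-34476032 in FDX1P1. Bases past the coding sequence were not searched, so the identity may run on. A fragment that lies wholly inside it cannot be assigned to 1 of the genes by sequence.
FDX1 and FDX1P1: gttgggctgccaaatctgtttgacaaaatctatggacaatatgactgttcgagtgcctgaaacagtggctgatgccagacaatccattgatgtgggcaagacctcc

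The FDX1-OE libraries in ES stood apart from the rest. Their FPKM sums were 408018 and 403024, against 446949 and 447377 in control cells in ES and 445716 to 451027 in the DMSO libraries, and mitochondrially encoded mRNAs made up 14.7% and 11.9% of them, against 16.9% to 17.6% elsewhere. Genes at 1 FPKM or more numbered 11868 and 12047 in FDX1-OE cells in ES, 11225 and 11320 in control cells in ES, and 10815 to 10866 in the DMSO libraries. The depth in fragments is unknown, so no counting interval is given for any FPKM. Of the defining markers, 6 B cell genes summed to 1355 to 1391 FPKM in FDX1-OE cells in ES and to 1461 to 1498 FPKM in the other groups. The defining B cell genes were thus present in every library. Markers of T and NK cells summed to 0.366 to 0.384 FPKM in FDX1-OE cells in ES, 0.113 to 0.120 FPKM in control cells in ES and 0 to 0.119 FPKM in the DMSO libraries, with 3 of 5 at 0 in every library. Those of myeloid cells summed to 0.366 to 0.638 FPKM in FDX1-OE cells in ES, 0.252 to 0.389 FPKM in control cells in ES and 0.0473 to 0.194 FPKM in the DMSO libraries. Those of epithelial and stromal cells summed to 0.545 to 0.556 FPKM in FDX1-OE cells in ES, 0.127 to 0.240 FPKM in control cells in ES and 0.0684 to 0.234 FPKM in the DMSO libraries. All 3 sums were thus highest in FDX1-OE cells in ES, apart from an overlap with control cells in ES for the myeloid genes, and stayed below 1 FPKM. Their part in the results was not tested. In bulk RNA, fewer cells expressing a gene and less RNA of it per cell cannot be told apart.

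FDX1, the overexpressed gene, checks the labels first. It was at 60.7 and 59.4 FPKM in FDX1-OE cells in ES and at 59.8 and 56.0 FPKM in FDX1-OE cells in DMSO, against 9.88 and 10.0 FPKM in control cells in ES and 10.8 and 10.4 FPKM in control cells in DMSO. Every FDX1-OE library lay far above every control library, as their labels say. FDX2 was at 11.7 and 18.5 FPKM in FDX1-OE cells in ES, 15.9 and 18.0 FPKM in control cells in ES, 13.4 and 12.4 FPKM in FDX1-OE cells in DMSO, and 12.9 and 12.1 FPKM in control cells in DMSO. The DMSO libraries of FDX2 overlapped between genotypes, and the FDX1-OE libraries in ES lay on either side of the control libraries in DMSO. FDXR was at 6.45 and 7.77 FPKM in FDX1-OE cells in ES, 4.95 and 6.65 FPKM in control cells in ES, 4.97 and 4.83 FPKM in FDX1-OE cells in DMSO, and 4.55 and 5.17 FPKM in control cells in DMSO. FDXR was highest in FDX1-OE cells in ES, where its lower library overlapped the range of control cells in ES.

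**Figure D1:**
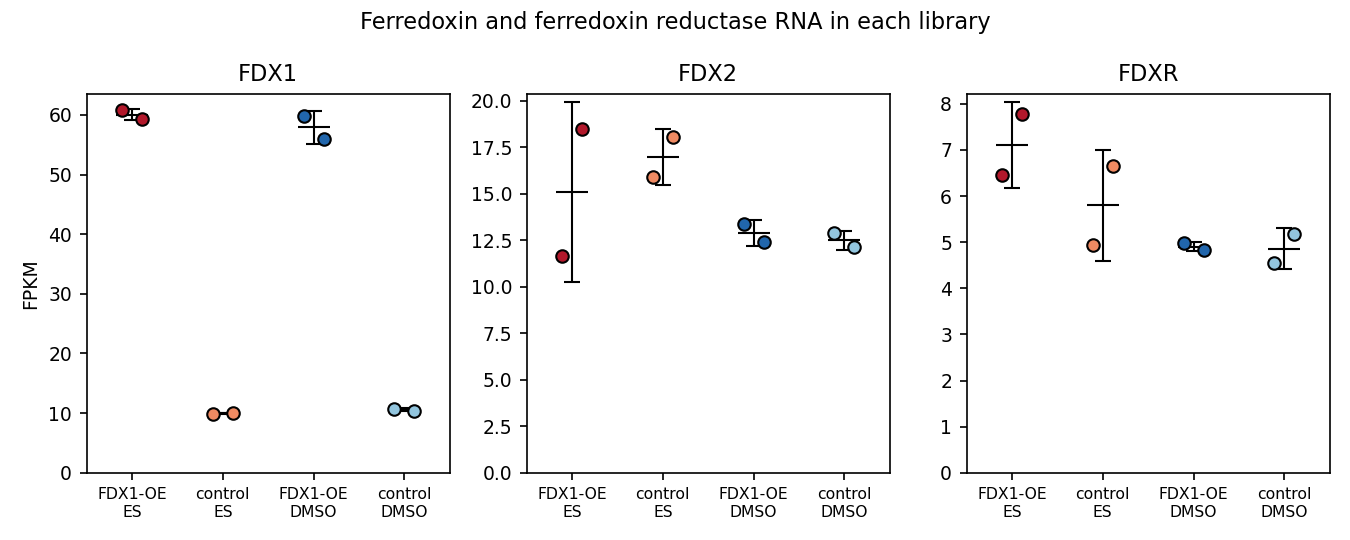
FPKM of FDX1, FDX2 and FDXR in each of the 8 libraries (points), by group, with the mean and SD of 2 libraries as bars. FDX1 lies between 56.0 and 60.7 FPKM in FDX1-OE libraries and between 9.88 and 10.8 FPKM in control libraries, while FDX2 is split between 11.7 and 18.5 FPKM in FDX1-OE cells in ES.

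Within each library the FPKM, a per-length level, put the genes in an order that depended on the genotype. In all 4 FDX1-OE libraries the order was FDX1, FDX2 and then FDXR, and in all 4 control libraries it was FDX2, FDX1 and then FDXR. FDX1 was above FDX2 5.21-fold and 3.21-fold in FDX1-OE cells in ES and 4.47-fold and 4.52-fold in FDX1-OE cells in DMSO. The FDX1 to FDX2 ratio was 0.620 and 0.557 in control cells in ES and 0.837 and 0.857 in control cells in DMSO. FDX1 thus made up 83.9% and 76.3% of the ferredoxin FPKM (FDX1 plus FDX2) in FDX1-OE cells in ES and 81.7% and 81.9% in FDX1-OE cells in DMSO, against 38.3% and 35.8% in control cells in ES and 45.6% and 46.2% in control cells in DMSO. FPKM divides by a gene length, and the length used is not given in the sources used here. In 1 reference transcript of each gene the coding sequence is 17.2% of 3206 bases for FDX1, 55.1% of 1012 for FDX2 and 78.6% of 1875 for FDXR. All annotated exons of each gene together cover 3206, 1371 and 3599 bases. Whether the introduced FDX1 carried its untranslated regions is not given in the sources used here, so the ratio of FDX1 to the other genes in FDX1-OE cells is one of FPKM, not of molecules. The same limit holds for the ratio of FDX1 between FDX1-OE and control cells.

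The ratio of ferredoxin to reductase FPKM includes the overexpressed FDX1, so the overexpression itself raises it in FDX1-OE cells. The summed FPKM of FDX1 and FDX2 over the FPKM of FDXR was 11.2 and 10.0 in FDX1-OE cells in ES and 14.7 and 14.1 in FDX1-OE cells in DMSO, against 5.22 and 4.22 in control cells in ES and 5.20 and 4.36 in control cells in DMSO. Each FDX1-OE library was above each control library, and within FDX1-OE cells both ES libraries were below both DMSO libraries. FDX1 alone gave a ratio to FDXR of 9.41 and 7.64 in FDX1-OE cells in ES and 12.0 and 11.6 in FDX1-OE cells in DMSO, against 2.00 and 1.51 in control cells in ES and 2.37 and 2.01 in control cells in DMSO. The FDX2 to FDXR ratio, which does not include the overexpressed gene, was 1.81 and 2.38 in FDX1-OE cells in ES, 3.22 and 2.71 in control cells in ES, 2.69 and 2.56 in FDX1-OE cells in DMSO, and 2.83 and 2.35 in control cells in DMSO. In an exact two-sided permutation test over libraries its log2 value differed by -0.24 between FDX1-OE and control cells (4 against 4 libraries, p = 0.20, adjusted p = 0.35 over 7 such tests). All 7 exchanged libraries freely over the groups, so differences due to the other factor, genotype or treatment, count as spread. They also take the 2 libraries of a group as independent.

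Among the tested genes FDX1 stood at the 91.5 and 90.9 percentile of FPKM in FDX1-OE cells in ES and at the 91.1 and 90.5 percentile in FDX1-OE cells in DMSO. In control cells it stood at the 52.0 and 51.6 percentile in ES and at the 55.8 and 55.2 percentile in DMSO. FDX1 was therefore near the middle of the expressed genes in control cells and close to the top in FDX1-OE cells. FDX2 stood at the 52.8 and 65.9 percentile in FDX1-OE cells in ES, 65.0 and 67.6 in control cells in ES, 61.8 and 59.8 in FDX1-OE cells in DMSO, and 60.7 and 59.3 in control cells in DMSO. FDXR stood between the 35.4 and 41.3 percentile in all 8 libraries, and its groups overlapped on this scale: the values were 36.3 and 41.2 in FDX1-OE cells in ES and 37.2 and 36.6 in FDX1-OE cells in DMSO.

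Differences were tested with limma on log2(FPKM + 1), a scale on which changes at low levels come out smaller than they are. Calls were made at an adjusted p under 0.05 (Benjamini-Hochberg, over all 12063 genes). The comparisons share libraries, so each gene's values are given side by side and the comparisons are not independent of each other. Each gene's spread was estimated once over all groups, so intervals of comparisons without FDX1-OE cells in ES include the spread of that group. The median absolute replicate difference over all genes was 0.165 there, against 0.0876 in control cells in ES and 0.0750 to 0.0753 in the DMSO groups. Mean levels are given as FPKM ± SD with n = 2 libraries.

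In DMSO, FDX1 overexpression was measured against control cells without elesclomol, and 1 of the 3 genes was called, FDX1. This was also the only call among all genes, 0.00829% of those tested. FDX1 averaged 57.9 ± 2.72 FPKM in FDX1-OE cells and 10.6 ± 0.266 FPKM in control cells (SD, n = 2 each), a ratio of 5.47 and a log2 fold change of 2.35 (95% interval 2.20 to 2.49, limma adjusted p = 2.69e-06). These are sizes in FPKM, and the number of added transcripts cannot be read from them. FDX2 averaged 12.9 ± 0.708 FPKM in FDX1-OE cells and 12.5 ± 0.519 FPKM in control cells, with a log2 fold change of 0.04 and a 95% interval from -0.36 to 0.44. The standard error of this FDX2 value was 0.174, against 0.0644 with only these 2 groups fitted, where FDX2 was not called either (limma adjusted p = 0.90). FDXR averaged 4.90 ± 0.10 FPKM in FDX1-OE cells and 4.86 ± 0.439 FPKM in control cells, with a log2 fold change of 0.01 and a 95% interval from -0.30 to 0.33. Neither FDX2 nor FDXR passed the test (limma adjusted p = 0.999 for each), and the libraries of the groups overlapped for both. The intervals do not exclude changes of FDX2 and FDXR within these bounds.

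In ES the overexpression of FDX1 was seen at a like size. FDX1 averaged 60.1 ± 0.977 FPKM in FDX1-OE cells and 9.95 ± 0.108 FPKM in control cells, a ratio of 6.03 and a log2 fold change of 2.48 (95% interval 2.33 to 2.63, limma adjusted p = 1.71e-06). FDX1 was the only 1 of the 3 genes called, in a comparison where 41.5% of all genes were called and the median over all genes was 0.16 on the log2 scale. By size FDX1 ranked 20 among all genes in ES, against rank 3 in DMSO. The difference between the FDX1 effects in ES and in DMSO, the interaction, was 0.13 on the log2 scale (95% interval -0.08 to 0.34, limma adjusted p = 0.325). No member was called in the interaction, where 19% of all genes were.

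FDX2 and FDXR did not pass the test between genotypes in ES. FDX2 averaged 15.1 ± 4.83 FPKM in FDX1-OE cells and 17.0 ± 1.49 FPKM in control cells in ES, a log2 fold change of -0.19 (95% interval -0.59 to 0.21, limma adjusted p = 0.401). FDXR averaged 7.11 ± 0.932 FPKM in FDX1-OE cells and 5.80 ± 1.21 FPKM in control cells in ES, a log2 fold change of 0.26 (95% interval -0.05 to 0.58, limma adjusted p = 0.158). The groups overlapped for both genes. With the FPKM of every library set to an equal total, the FDXR value was 0.38 and passed the test (limma adjusted p = 0.0461), the only 1 of 16 alternatives in which it did. It was 0.14 under median-ratio scaling (adjusted p = 0.455) and 0.026 under quantile normalisation (adjusted p = 0.90), and ran from 0.080 (without control ES replicate 1) to 0.44 (without control ES replicate 2) with 1 library left out.

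**Figure D2:**
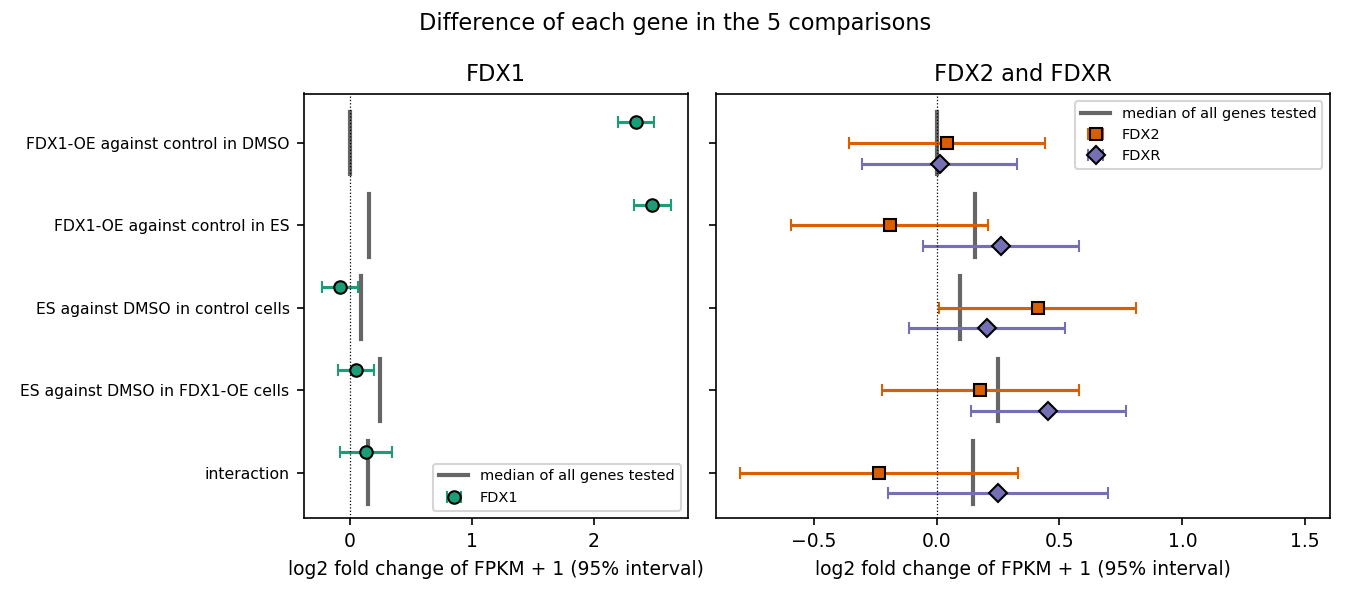
log2 fold change of FPKM + 1 with its 95% interval for FDX1 (left) and for FDX2 and FDXR (right) in the 5 comparisons (the interaction is the ES effect in FDX1-OE cells minus that in control cells), with the median of all genes tested as a grey bar. The FDX1 values of 2.35 and 2.48 stand apart from all others, and for FDX2 and FDXR only the ES effect on FDXR in FDX1-OE cells, at 0.45, passed the test.

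Elesclomol was tested against DMSO within each genotype. FDX1 did not pass the test in either. In FDX1-OE cells it averaged 60.1 ± 0.977 FPKM in ES and 57.9 ± 2.72 FPKM in DMSO, a log2 fold change of 0.05 (95% interval -0.10 to 0.20, limma adjusted p = 0.502) with overlapping libraries. In control cells, where all FDX1 comes from the cells' own gene, FDX1 averaged 9.95 ± 0.108 FPKM in ES and 10.6 ± 0.266 FPKM in DMSO, a log2 fold change of -0.08 (95% interval -0.23 to 0.07, limma adjusted p = 0.448). Both ES libraries of the control cells were below both DMSO libraries, but the interval of the difference includes 0. All genes together had a median of 0.25 in FDX1-OE cells and 0.09 in control cells, above the FDX1 value in each. The direction for FDX1 in FDX1-OE cells flipped with the scaling: it was -0.18 under median-ratio scaling (limma adjusted p = 0.0435) and 0.19 with equal FPKM totals (adjusted p = 0.0283).

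FDXR was the only member called for elesclomol, and in FDX1-OE cells alone, where 60.8% of all genes were called, 47.1% as higher and 13.7% as lower. It averaged 7.11 ± 0.932 FPKM in ES and 4.90 ± 0.10 FPKM in DMSO, a ratio of 1.45 and a log2 fold change of 0.45 (95% interval 0.14 to 0.77, limma adjusted p = 0.0206), and the libraries did not overlap. The median over all genes was 0.25, and 67.9% of the genes tested had a lower log2 fold change. In control cells FDXR averaged 5.80 ± 1.21 FPKM in ES and 4.86 ± 0.439 FPKM in DMSO, with a log2 fold change of 0.20 (95% interval -0.11 to 0.52, limma adjusted p = 0.366) and overlapping libraries. The difference between the 2 effects, 0.25 (95% interval -0.20 to 0.69, limma adjusted p = 0.385), did not pass the test, so FDXR was not shown to respond differently in the genotypes. Over both genotypes, FDXR was 0.33 higher on the log2 scale in ES than in DMSO (4 against 4 libraries, exact two-sided permutation p = 0.0857, adjusted p = 0.30 over 7 tests). This permutation test did not take genotype into account.

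The FDXR call depended on single libraries and on the scaling. It was lost without replicate 2 of FDX1-OE cells in ES (0.34, limma adjusted p = 0.099), without replicate 1 of FDX1-OE cells in DMSO (0.47, adjusted p = 0.0686) and without replicate 2 of that group (0.44, adjusted p = 0.086). It was 0.25 (adjusted p = 0.144) under median-ratio scaling and 0.10 (adjusted p = 0.57) under quantile normalisation, both of which bring the median of all genes to near 0 in this comparison. Its sign was positive in all 16 alternative settings and it was called in 9 of them. The share of calls that were higher in ES, over all genes in FDX1-OE cells, was 77.5% in the authors' FPKM, 54.5% under median-ratio scaling, 48.7% under quantile normalisation and 86.6% with equal totals. The part that the lower FPKM sums and mitochondrial mRNA shares of the FDX1-OE libraries in ES play in the FDXR result was not tested beyond these scalings.

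**Figure D3:**
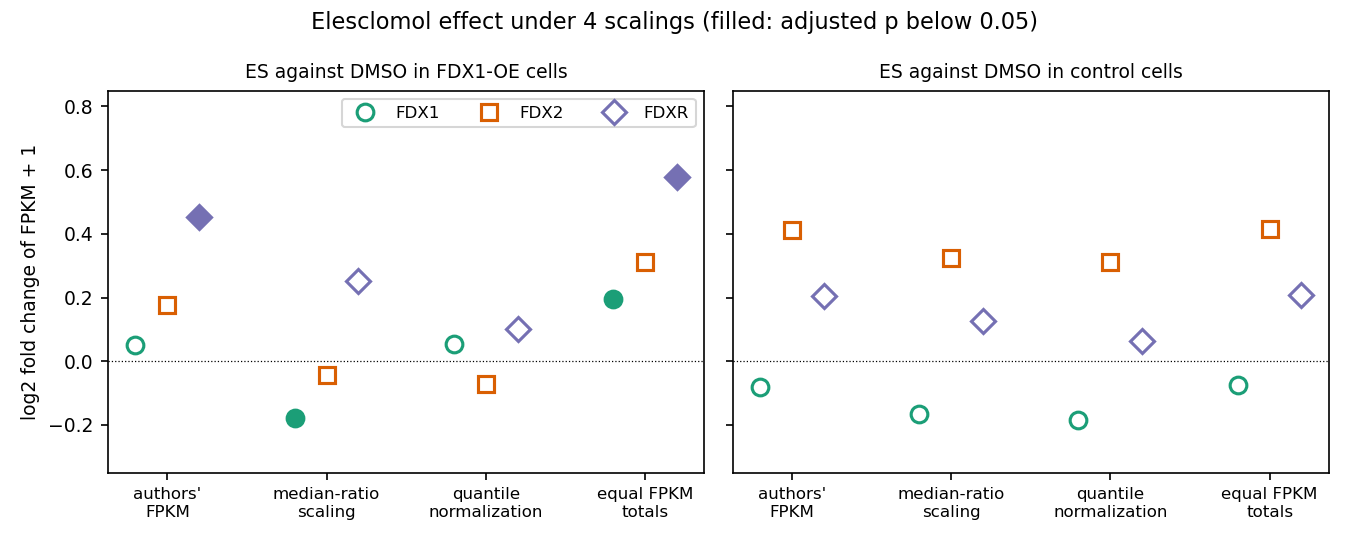
log2 fold change of ES against DMSO in FDX1-OE cells (left) and control cells (right) under the authors' FPKM and 3 other scalings, filled where the adjusted p was below 0.05. In FDX1-OE cells FDXR falls to 0.25 and 0.10 under median-ratio scaling and quantile normalisation and loses its call, and FDX1 is called at -0.18 under median-ratio scaling and at 0.19 with equal totals.

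FDX2 had its largest difference between ES and DMSO in control cells, where none of the 3 genes and 7.74% of all genes were called. FDX2 averaged 17.0 ± 1.49 FPKM in ES and 12.5 ± 0.519 FPKM in DMSO, a ratio of 1.36 and a log2 fold change of 0.41 (95% interval 0.01 to 0.81). The libraries did not overlap, and the unadjusted limma p of 0.0452 became an adjusted p of 0.173. The value passed the test in 4 of 17 alternatives. In the fit with library weights and in that of these 2 groups alone it passed (0.41 in each, limma adjusted p = 0.0309 and 0.0293), as it did when either FDX1-OE library in ES was left out of the shared estimate of the spread (0.41, adjusted p = 0.0161 without replicate 1 and 0.0164 without replicate 2). It did not pass under median-ratio scaling (0.32, adjusted p = 0.281), under quantile normalisation (0.31, adjusted p = 0.372) or without control ES replicate 2 (0.33, adjusted p = 0.532), among others. In FDX1-OE cells FDX2 averaged 15.1 ± 4.83 FPKM in ES and 12.9 ± 0.708 FPKM in DMSO, a log2 fold change of 0.18 (95% interval -0.22 to 0.58, limma adjusted p = 0.398), and the libraries overlapped. The interaction of FDX2 was -0.23 (95% interval -0.80 to 0.33, limma adjusted p = 0.523).

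The spread of FDX2 came from 1 pair of libraries. Its replicates in FDX1-OE cells in ES, 11.7 and 18.5 FPKM, differed by 0.62 on the log2 scale, more than those of 97.9% of the genes tested in that group. The FDX2 difference between genotypes in ES was -0.50 without replicate 2 (limma adjusted p = 0.00679) and 0.12 without replicate 1 (adjusted p = 0.332). Its ES effect in FDX1-OE cells was -0.13 without replicate 2 (adjusted p = 0.256) and 0.49 without replicate 1 (adjusted p = 0.00398), and its interaction was -0.54 (adjusted p = 0.0202) and 0.08 (adjusted p = 0.654). No direction can be read for FDX2 in FDX1-OE cells in ES from these libraries. FDXR spread most in control cells in ES, 4.95 and 6.65 FPKM, a replicate difference of 0.36 on the log2 scale that exceeded those of 95.1% of genes in that group.

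FDX2 also shares its place in the genome with other annotated genes. AC011511.1 holds 972 of the 1371 exonic bases of FDX2 (70.9%) and AC011511.4 holds 77 (5.62%), on the same strand, and both have rows of their own in the deposited files. How the authors' counting divided fragments between such genes is not given in the sources used here, so the FDX2 level is uncertain. AC011511.4 was at 9.76 and 0.394 FPKM in FDX1-OE cells in ES, 4.20 and 2.08 in control cells in ES, 3.52 and 8.56 in FDX1-OE cells in DMSO, and 0.00665 and 4.99 in control cells in DMSO. It was high in the FDX1-OE library in ES where FDX2 was low, and low where FDX2 was high. AC011511.1 stayed between 2.55 and 4.62 FPKM in all libraries. The summed FPKM of the 3 rows was 24.7 and 23.5 in FDX1-OE cells in ES, 23.9 and 22.7 in control cells in ES, 19.5 and 23.9 in FDX1-OE cells in DMSO, and 16.0 and 20.6 in control cells in DMSO. The replicates of FDX1-OE cells in ES were closer on the sum than on FDX2 alone, while those of both DMSO groups were further apart. FPKM is scaled to the length of each row, so the sum is not a total of fragments. On the sum, a measure chosen after the data were seen, FDX1-OE against control in ES was 0.05 (limma adjusted p = 0.787), the reverse of the sign for FDX2 alone. The ES effect on the sum was 0.15 in FDX1-OE cells (adjusted p = 0.327) and 0.34 in control cells (adjusted p = 0.134), neither past the test.

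**Figure D4:**
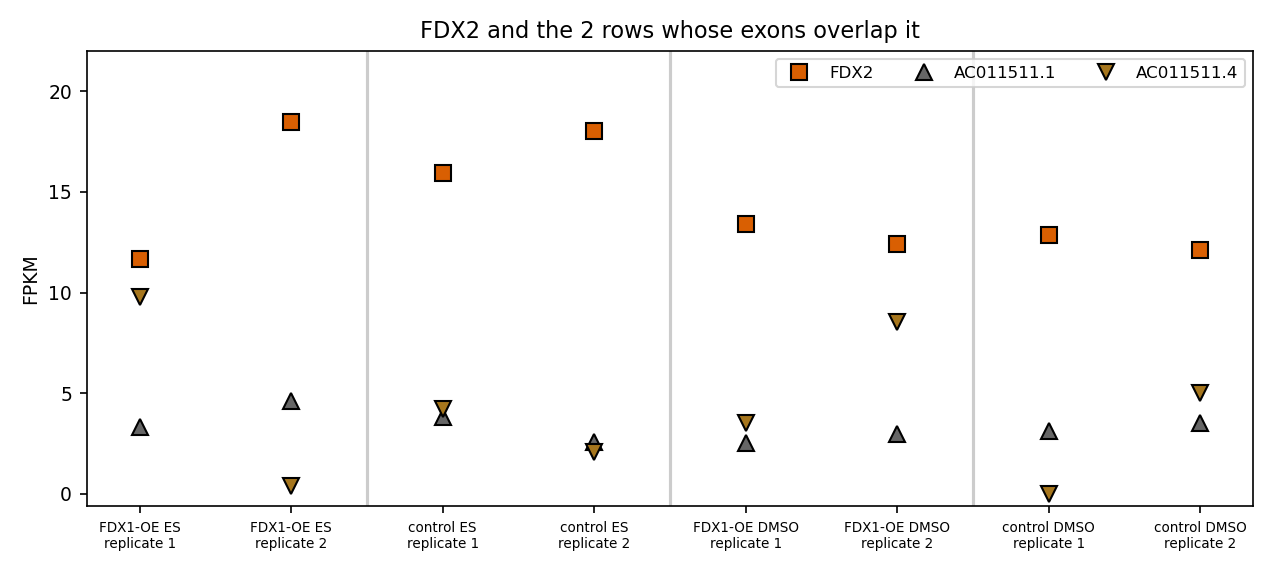
FPKM of FDX2 and of the overlapping rows AC011511.1 and AC011511.4 in each library. In FDX1-OE cells in ES, AC011511.4 is at 9.76 FPKM in the library with 11.7 FPKM of FDX2 and at 0.394 FPKM in the library with 18.5 FPKM.

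The pseudogene row FDX1P1 followed the overexpression at a low level. It was at 0.406 and 0.411 FPKM in FDX1-OE cells in ES and 0.650 and 0.567 FPKM in FDX1-OE cells in DMSO, against 0.0607 and 0 FPKM in control cells in ES and 0 and 0.0754 FPKM in control cells in DMSO. Each FDX1-OE library was above each control library. FDX1P1 was below 1 FPKM throughout and so was not among the genes tested. Over 4 FDX1-OE and 4 control libraries its log2(FPKM + 1) differed by 0.54 (exact two-sided permutation p = 0.0286, the smallest these numbers allow, adjusted p = 0.20 over 7 tests). Given the 106 identical bases shown above, fragments of FDX1 and of FDX1P1 could not be told apart with certainty, and the FDX1P1 row is uncertain. A second pseudogene, FDX1P2 (chr21:25692180-25692554, plus strand), was listed at 0 in all 8 libraries. FDXACB1, a different gene whose symbol begins with the same letters, was not called in any comparison, and its log2 fold change for FDX1-OE against control was 0.05 in DMSO and -0.13 in ES.

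The chromosomal neighbours of the 3 genes, up to 3 on each side, were read in the same comparisons. In DMSO no neighbour was called. Between FDX1-OE and control cells in ES 41.5% of all genes were called, and between ES and DMSO in FDX1-OE cells 60.8%, so calls among neighbours are given as values only. Only 1 of the 6 neighbours of FDX1 was expressed enough to test, RDX, a protein that links actin to the cell membrane, 133161 bases away. RDX rose in FDX1-OE cells in ES, by 0.55 against control cells in ES (limma adjusted p = 0.00771) and by 0.85 against FDX1-OE cells in DMSO (adjusted p = 0.000454). FDX2 had 6 tested neighbours, of which AC114271.1 was called, at 0.50 (adjusted p = 0.0132) and 0.58 (adjusted p = 0.00374) in the same comparisons. Of the 2 tested neighbours of FDXR, NAT9 fell in both, with values of -0.33 (adjusted p = 0.00953) and -0.36 (adjusted p = 0.0033), and TMEM104 rose in both, by 0.34 (adjusted p = 0.0471) and 0.48 (adjusted p = 0.00789).

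The genes whose log2 profile over the 8 libraries lay nearest to each member were ranked by the root mean square of the difference between centred profiles. For FDXR they were LLGL2 at 0.0301, the fatty acid oxidation enzyme ECI1 at 0.0455, TMEM104 at 0.0574, FUCA2 at 0.0597 and CLCF1 at 0.0606, against a standard deviation of FDXR itself of 0.221. TMEM104 lies 22718 bases from FDXR and was at 4.65 and 5.59 FPKM in FDX1-OE cells in ES, 3.44 and 4.25 FPKM in control cells in ES, 3.41 and 3.36 FPKM in FDX1-OE cells in DMSO, and 3.28 and 3.27 FPKM in control cells in DMSO. In TMEM104, as in FDXR, replicate 2 was above replicate 1 in both ES groups. For FDX2, whose own standard deviation was 0.231, the nearest were JOSD2 at 0.0545, GCHFR at 0.0737, CENPM at 0.0808, MYL6 at 0.0849 and ANTKMT at 0.0851. JOSD2 showed the same split in FDX1-OE cells in ES, with 7.94 and 12.7 FPKM. JOSD2 and TMEM104 were chosen for their nearness to the members in these same libraries, so such likeness follows from the choice. No gene came as near to FDX1, whose standard deviation was 1.21 and whose nearest profile, LINC01627, was at 0.764.

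Genes of ferredoxin pathways and of lists related to them were read from 7 lists of 58 genes, 49 of them tested. Not all are partners of the ferredoxins: 15 (13 tested) are p53 targets and 3 are cytosolic counterparts. The counts below cover all 7 lists. In DMSO none of the 49 was called between FDX1-OE and control cells, and 0.00829% of all genes were. In ES 12 of the 49 were higher in FDX1-OE than in control cells and 5 lower, where 31.1% of all genes were called higher and 10.4% lower. For ES against DMSO, 21 were higher and 7 lower in FDX1-OE cells, where 47.1% of all genes were called higher and 13.7% lower, and 6 were higher and 0 lower in control cells, where 6.74% of all genes were called higher and 1% lower. In the interaction 4 were higher and 3 lower, where 13.9% of all genes were higher and 5.06% lower. Beside the shares of all genes, nothing particular to these listed genes is read from the counts.

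Among the acceptors of FDX1, 6 of the 7 mitochondrial P450s were below the level for testing in this lymphoma line, and the 1 tested, the vitamin D hydroxylase CYP27B1, was not called in any comparison. Of the 8 genes of lipoate synthesis, lipoate transfer and lipoylated subunits, the lipoyl synthase LIAS was not called in any comparison. LIAS was at 7.38 and 6.20 FPKM in FDX1-OE cells in ES and 7.29 and 5.30 FPKM in control cells in ES, overlapping ranges. DLST, the lipoylated subunit of 2-oxoglutarate dehydrogenase, rose to 54.3 and 60.4 FPKM in FDX1-OE cells in ES, against 44.9 and 45.3 FPKM in control cells in ES and 39.2 and 39.3 FPKM in FDX1-OE cells in DMSO (log2 fold changes 0.34 and 0.53, limma adjusted p = 0.00559 and 0.000288). GCSH, the lipoylated protein of glycine cleavage, a gene with pseudogene copies that may share its fragments, fell to 33.7 and 25.7 FPKM in FDX1-OE cells in ES, against 44.8 and 42.9 FPKM in control cells in ES and 45.4 and 48.8 FPKM in FDX1-OE cells in DMSO (-0.56 and -0.66, limma adjusted p = 0.00613 and 0.00133). Without FDX1-OE ES replicate 2 the first of these GCSH values was -0.37, still called. The list as a whole had 2 higher, DLST and LIPT2, and 1 lower between FDX1-OE and control cells in ES. Of all genes 31.1% were called higher and 10.4% lower, and the median of the list was 0.19 against 0.16 for all genes. LIPT2 (0.42, limma adjusted p = 0.0394) reached 1 FPKM only in the FDX1-OE libraries in ES, at 1.41 and 1.10 FPKM. It was thus tested only through the group where it was high, and was called in 4 of 14 alternatives. The number higher in the list was 0 under median-ratio scaling and 4 with equal totals.

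Among the partners of FDX2, 16 genes of mitochondrial iron-sulfur cluster assembly were tested. For ES against DMSO, 7 rose and 4 fell in FDX1-OE cells, where 47.1% of all genes were called higher and 13.7% lower (median log2 fold change 0.23, against 0.25 for all genes). In control cells 2 rose, where 6.74% of all genes were called higher (median 0.08, against 0.09). The number that rose in FDX1-OE cells was 2 under median-ratio scaling and 1 under quantile normalisation. ISCU, the scaffold on which FDX2 works, rose in both genotypes. It was at 38.8 and 40.9 FPKM in ES and 25.5 and 26.3 FPKM in DMSO in FDX1-OE cells (0.60, limma adjusted p = 0.000132), and at 36.4 and 38.1 FPKM in ES and 25.4 and 25.3 FPKM in DMSO in control cells (0.54, adjusted p = 0.005). The call in control cells held in 13 of 16 alternatives and was lost without replicate 2 of the ES libraries (0.51, adjusted p = 0.0769) and without either DMSO library. GRPEL1, an exchange factor of the mitochondrial Hsp70 that helps transfer clusters, fell to 18.3 and 16.8 FPKM in FDX1-OE cells in ES, against 26.9 and 24.5 FPKM in control cells in ES (-0.52, adjusted p = 0.00198). Between FDX1-OE and control cells in ES this list had 1 higher, IBA57, and 3 lower, GRPEL1, NDUFAB1 and the cysteine desulfurase NFS1, where 31.1% of all genes were called higher and 10.4% lower, with a median of -0.01 against 0.16 for all genes. Of 16 alternatives, GRPEL1 was called in 16, NDUFAB1 in 15, IBA57 in 10 and NFS1 in 6. With 1 library left out the adjusted p reached 0.0701 for IBA57, 0.0695 for NDUFAB1 (without control ES replicate 2) and 0.302 for NFS1 (-0.14, without control ES replicate 1).

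The remaining lists touch haem A, the cytosol, the electron source of FDXR and the p53 response. COX10 and COX15, which make haem A and of which COX15 is a known user of ferredoxin electrons, both rose in ES in FDX1-OE cells, by 0.43 and 0.37 (limma adjusted p = 0.00258 and 0.00225), calls that were lost under median-ratio scaling and quantile normalisation. NDOR1, the cytosolic flavoprotein that does for cytosolic cluster assembly what FDXR does in mitochondria, rose by 0.36 in ES in FDX1-OE cells (adjusted p = 0.0132), and likewise lost its call under those scalings. NDOR1 was called in 12 of 16 alternatives, and with 1 library left out its value ran from 0.21 to 0.51 and its adjusted p up to 0.0643. Its partner CIAPIN1 and the P450 reductase POR were not called. Of 6 tested genes of mitochondrial NADPH supply, 4 rose and 1 fell in ES in FDX1-OE cells, where 47.1% of all genes were called higher and 13.7% lower (median 0.42, against 0.25 for all genes). Among them were NNT, the transhydrogenase, at 0.56 (adjusted p = 0.000216), and isocitrate dehydrogenase IDH2, at 0.66 (adjusted p = 0.00302). Another of the 4, ALDH1L2 (1.36), reached 1 FPKM only in the FDX1-OE libraries in ES, at 1.62 and 1.68 FPKM. ALDH1L2 was thus tested only through the group where it was high, so its rise is not independent of the filter. The count and the median of this list include it. Without FDX1-OE ES replicate 2 the IDH2 value was 0.43. NNT also rose in control cells, by 0.46 (adjusted p = 0.0107), a call held in 12 of 16 alternatives and lost without control ES replicate 2 (0.41, adjusted p = 0.105) or either control DMSO library. Of 13 tested p53 targets, the group to which FDXR itself is known to belong, 5 rose and 1 fell in FDX1-OE cells in ES against DMSO, where 47.1% of all genes were called higher and 13.7% lower, and 2 rose in control cells, where 6.74% of all genes were called higher. CDKN1A, the cell cycle inhibitor p21, was at 5.47 and 7.06 FPKM in ES and 0.381 and 0.434 FPKM in DMSO in FDX1-OE cells (2.36, adjusted p = 1.25e-05), while 7 of the 13 were not called. Only the FDX1-OE libraries in ES brought CDKN1A to 1 FPKM, the level for testing. The median of the p53 list was 0.18 in FDX1-OE cells, below that of all genes.

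**Figure D5:**
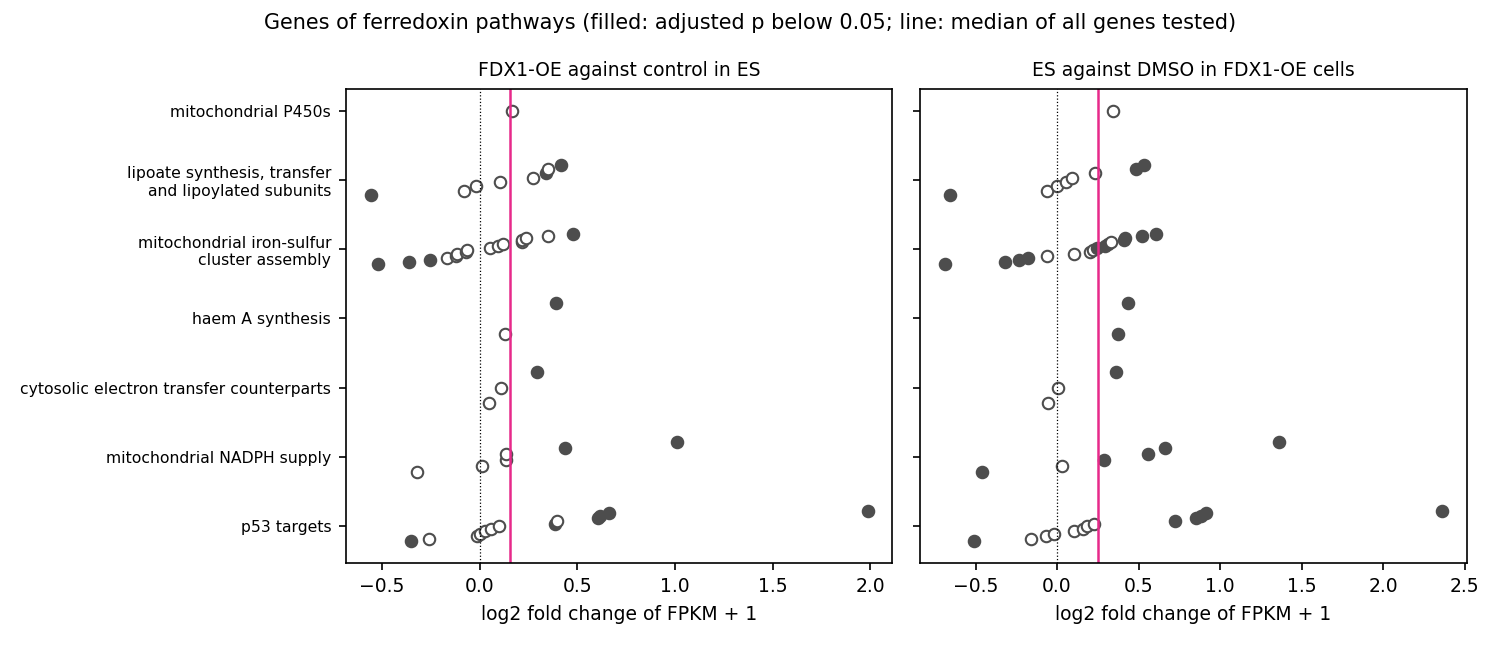
log2 fold change of FPKM + 1 for each tested gene of the 7 lists, between FDX1-OE and control cells in ES (left) and between ES and DMSO in FDX1-OE cells (right), filled where the adjusted p was below 0.05, with the median of all genes as a line (0.16 and 0.25). Calls lie on both sides of zero in the lipoate, iron-sulfur and p53 lists.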

How the data were processed

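RNA sequencing values of 8 libraries were used, 2 in each of 4 groups, with groups and replicate numbers taken from the labels. The deposited values were taken as FPKM made by the authors. The files carry no unit name. FPKM was inferred because values are fractional and library sums are unequal. HISAT2, HTSeq, R 3.2.0 and hg19 are named, without roles, per the submitters' processing notes. Strand handling and depth are not given in the sources used here. The plan assumed counts and named limma on log values for a normalised unit, which was used. The 3 genes, the lists and the tests were chosen with earlier results of these data known.

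From the FPKM, log2(FPKM + 1) was computed with no further scaling. The 12063 genes that reached 1 FPKM in 2 or more libraries were fitted with limma 3.58.1 in R 4.3.3, with 4 group means over all 8 libraries, a mean-variance trend (4 residual and 4.25 prior degrees of freedom), two-sided tests and Benjamini-Hochberg adjustment over all genes at 0.05. The fit was tested on simulated data with few changed genes, as often higher as lower, and a like spread in every group. How it behaves with changes as many and as one-sided as those of FDX1-OE cells in ES was not tested. Besides the 3 members, the named genes are other rows whose symbol begins with FDX, up to 3 annotated neighbours on each side, up to 4 genes of each list with the smallest p in a comparison, and the 5 nearest profiles. Reads of FDX1P1, FDX2, GCSH and other genes with near copies or overlaps are uncertain. Names and positions were matched to GENCODE 29 by symbol: 54986 of 59606 symbols (92.2%) and all 3 members. The 1059 rows that share a symbol with another row (38 among those tested) were kept apart, and none is a member. Alternatives were a pseudocount of 0.1, no filter, 3 other scalings, library weights, only the groups compared, the replicate block, each library left out and, added after seeing the data, FDX2 summed with its overlapping rows.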

Additional observations from a re-analysis of the deposited data

Results flagged for a closer look

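For several genes named above or drawn in with them, the ES effect in FDX1-OE cells differed from that in control cells by the test of the difference itself (limma interaction, adjusted over all genes). FDX1, FDX2 and FDXR were not among them. The difference of the effects, FDX1-OE minus control on the log2 scale, was 1.76 for CDKN1A (adjusted p = 0.00212), 1.00 for ALDH1L2, a mitochondrial folate enzyme that makes NADPH (adjusted p = 0.00826), and 0.53 for SESN1 (adjusted p = 0.0407). It was 0.41 for COX10 (adjusted p = 0.0479). For AL513314.2, chosen as near to FDX1 in these same libraries, it was 0.69 (adjusted p = 0.0484), not independent of that choice. It was -0.67 for GCSH (adjusted p = 0.025), -0.60 for GRPEL1 (adjusted p = 0.0121), -0.39 for AEN (adjusted p = 0.0276), -0.36 for NAT9, a neighbour of FDXR (adjusted p = 0.0468), and -0.39 for the B cell marker CD79B (adjusted p = 0.0369). Several of these calls depended on the setting: CDKN1A and ALDH1L2 were called in 13 of 13 alternatives, GRPEL1 in 12 of 15, GCSH and AEN in 8 of 15, COX10 in 3 of 15 and SESN1 in 1 of 15. Only in the FDX1-OE libraries in ES did CDKN1A and ALDH1L2 reach 1 FPKM. Without either of these libraries both genes fell out of testing, so those fits are missing from their alternatives. With 1 library left out SESN1 was not called in any fit (lowest adjusted p = 0.0591), and the adjusted p reached 0.157 for COX10, 0.109 for AEN, 0.0915 for GCSH and 0.0569 for GRPEL1. The alternatives were not run for AL513314.2, NAT9 and CD79B. CD79B was the only 1 of the 6 B cell markers called in the interaction, where CD22 stood at -0.29 and PAX5 at 0.33. For ES against DMSO in FDX1-OE cells PAX5 (0.28) and CD79A (0.22) were called higher, and CD22 (-0.53) and CD79B (-0.34) lower. In that comparison 47.1% of all genes were called higher and 13.7% lower. The median interaction of all genes was 0.15, and 73.4% of the calls were positive, against 44.3% under median-ratio scaling, 49% under quantile normalisation and 89.6% with equal totals.

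FDX1P1 lay outside the genes tested and still had values above 0, with a mean of 0.509 FPKM over the FDX1-OE libraries against 0 to 0.0754 FPKM in the control libraries. The difference did not pass after adjustment (exact two-sided permutation adjusted p = 0.20 over 7 tests). Fragments of FDX1P1 and of the overexpressed FDX1 could not be told apart with certainty.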

How the results depend on the processing

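FDX1 was called in both comparisons of FDX1-OE with control cells under all 16 alternatives. For ES against DMSO in FDX1-OE cells, median-ratio scaling gave -0.18 for FDX1 (adjusted p = 0.0435), -0.042 for FDX2 and 0.25 for FDXR (adjusted p = 0.144). Quantile normalisation gave -0.071 for FDX2 and 0.10 for FDXR (adjusted p = 0.57), equal totals gave 0.19 for FDX1 (adjusted p = 0.0283), and FDXR was 0.45 with no filter (adjusted p = 0.0741) and with library weights (adjusted p = 0.0635). The cause of these changes was not tested. FDXR between FDX1-OE and control cells was -0.012 in DMSO under quantile normalisation and 0.38 in ES with equal totals. FDX2 summed with its overlaps gave 0.047 in that ES comparison. FDX2 for ES against DMSO in control cells was 0.41 and passed the test with library weights and in the 2 groups alone. The FDX1 interaction was -0.013 under median-ratio scaling. It has no fit of 2 groups alone, since all groups enter it.

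Counts of genes called moved as follows. For FDX1-OE against control in DMSO there were 1 in the reported fit, 3 with no filter, 4 with weights and 3 with only the groups compared. In ES there were 5008, against 3026 with weights and 3245 with only the groups compared. For ES against DMSO in control cells there were 934, against 58 with no filter, 231 under quantile normalisation, 2523 with weights and 1654 with only the groups compared. For the interaction there were 2291, against 1339 with no filter, 1400 under quantile normalisation and 3868 with equal totals. For single list genes, 558 alternative values kept the call, 154 lost it and 0 changed sign, and 52 list counts moved by over 1.5 times while 158 did not.

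With 1 library left out at a time, counts of genes called ran from 1 to 2 for FDX1-OE against control in DMSO and from 2511 (without control ES replicate 1) to 4903 in ES. They ran from 28 (without control ES replicate 2) to 2242 (without FDX1-OE ES replicate 2) for ES in control cells, from 5538 to 6970 for ES in FDX1-OE cells, and from 539 (without FDX1-OE DMSO replicate 2) to 3183 (without FDX1-OE ES replicate 1) for the interaction. FDX2 ran from -0.011 to 0.093 and FDXR from -0.064 to 0.089 for FDX1-OE against control in DMSO. FDX2 ran from -0.50 to 0.12 for FDX1-OE against control in ES, from 0.33 to 0.50 for ES in control cells, from -0.13 to 0.49 for ES in FDX1-OE cells, and from -0.54 to 0.078 for the interaction. FDXR ran from 0.34 to 0.57 for ES in FDX1-OE cells.

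The replicate numbers did not pair the libraries: deviations of same-numbered libraries correlated at -0.05 to 0.08. With the replicate block the counts were 1, 4843, 705, 7235 and 1922 in the order of the comparisons above, and no call of FDX1, FDX2 or FDXR changed (FDXR for ES in FDX1-OE cells 0.45, adjusted p = 0.0105). With 2 libraries a group and an unknown depth, small changes of FDX2 and FDXR could not be detected. A lone library left in a group is assumed to vary like the others.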
